A study of Mus musculus with 6 samples.

Results

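The genes described here are 10 genes that mark or act in macrophages and neutrophils of the mouse: Spi1, Csf1r, Itgam, Itgax, Adgre1, Marco, Mrc1, S100a8, S100a9 and Chil3. They were picked by name, and a peak was assigned to a gene when it overlapped the gene's span in mouse build mm10 or the 5000 bp on either side of it. RefSeq holds 49943 genes on the assembled chromosomes, and 21887 of them, these 10 included, are protein-coding. Their windows summed to 518051 bp, and 112 peaks from 6 peak lists fell in them, which merged into 39 regions. The windows of 8 of the 10 genes held a peak in at least 1 library, while those of S100a8 and S100a9 held none. The windows of 0 of 10 members, and of 0.854% of protein-coding genes, held a region of the authors' deposited table of differential regions. The covered share was higher in every transgenic than in every wild-type library for 0 of 10 members and 5.44% of protein-coding genes, and lower for 0 of 10 and 0.0137%. At these backgrounds the counts of 0 are no result about the members.

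The study measured DNA methylation in lung by capturing methylated genomic DNA with a methyl-binding domain and sequencing it (MBD-seq), so a peak is a stretch where methylated fragments piled up. There were 3 transgenic mice, whose genotype label is SPC-DNMTdelta3B/DG for replicates 1 and 3 and is spelled SPC-DNMTdeltaB/DG for replicate 2, and 3 mice labelled Wild type, all aged 12 to 16 months. The transgene carries the deletion variant of the de novo methyltransferase DNMT3B that the series title names ∆DNMT3B4-del, behind the surfactant protein C (SPC) promoter, which is active in alveolar type 2 cells and not known as a promoter of myeloid cells. Several founder lines were made and the labels do not say which line each animal came from, whether its lung held a tumour, or its sex. The tissue was whole lung and only DNA was measured, so the tissue label could not be checked against expressed markers. In such a mixture, fewer cells carrying a methylated site and less methylation per cell cannot be told apart, and most of the captured DNA need not come from myeloid cells.

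Macrophages and neutrophils arise from myeloid progenitors under the control of lineage transcription factors and colony-stimulating factors. In the lung, resident alveolar macrophages clear surfactant and inhaled particles, and neutrophils enter from blood in inflammation. Genes of this lineage are commonly unmethylated at their control regions in myeloid cells and methylated there in other cell types, and many have promoters poor in CpG, the dinucleotide at which mammalian DNA is methylated.

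The peak lists held 120349, 116352 and 78952 peaks in transgenic 1, 2 and 3 and 60131, 111208 and 30637 in wild type 1, 2 and 3. Read depth is unknown. Wild type 3 had the fewest and narrowest peaks, and the fewest peaks in the member windows. Each peak carries a score, which the authors' peak caller gave it, begins at 50 in every list and is not scaled between libraries.

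The start of a gene is where methylation is most often read against transcription, so the sequence before the annotated start is shown for 5 members: Mrc1, which of the 7 members with a resolved start had the peak nearest to it, Itgam and Marco, with the most and the fewest CpG, and S100a8 and S100a9, the members without peaks. Each run is the 250 bases before the start site, from RefSeq (GRCm38.p6, the assembly of mm10), in the direction of the gene, and capitals mark each CpG.
Mrc1: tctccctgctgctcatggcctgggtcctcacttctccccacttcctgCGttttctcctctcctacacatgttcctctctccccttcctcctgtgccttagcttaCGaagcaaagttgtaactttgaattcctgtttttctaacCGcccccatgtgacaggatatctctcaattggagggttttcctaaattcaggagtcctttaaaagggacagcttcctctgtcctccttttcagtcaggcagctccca
Itgam: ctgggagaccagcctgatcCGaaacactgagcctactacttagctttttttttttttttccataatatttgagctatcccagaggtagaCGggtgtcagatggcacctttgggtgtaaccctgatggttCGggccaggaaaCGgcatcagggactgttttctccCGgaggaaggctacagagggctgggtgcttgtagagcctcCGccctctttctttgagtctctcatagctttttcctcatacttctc
Marco: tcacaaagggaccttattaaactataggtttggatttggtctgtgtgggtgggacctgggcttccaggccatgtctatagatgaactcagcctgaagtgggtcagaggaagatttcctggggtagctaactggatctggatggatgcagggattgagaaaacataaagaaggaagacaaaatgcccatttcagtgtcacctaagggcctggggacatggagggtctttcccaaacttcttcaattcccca
S100a8: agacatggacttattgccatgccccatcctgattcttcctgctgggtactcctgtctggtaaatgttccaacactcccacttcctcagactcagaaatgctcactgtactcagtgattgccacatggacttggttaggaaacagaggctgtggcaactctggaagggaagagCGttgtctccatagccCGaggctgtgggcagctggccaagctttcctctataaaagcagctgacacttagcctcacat
S100a9: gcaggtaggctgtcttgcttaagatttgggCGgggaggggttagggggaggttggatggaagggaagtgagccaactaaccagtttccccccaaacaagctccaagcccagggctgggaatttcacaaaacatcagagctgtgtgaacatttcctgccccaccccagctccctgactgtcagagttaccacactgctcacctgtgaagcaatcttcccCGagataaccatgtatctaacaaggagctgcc
They lie at chr2:14229164-14229413 (plus strand) for Mrc1, chr7:128062390-128062639 (plus strand) for Itgam, chr1:120505025-120505274 (minus strand) for Marco, chr3:90668821-90669070 (plus strand) for S100a8 and chr3:90695722-90695971 (minus strand) for S100a9. In the 300 bases from 250 before to 50 after the start, Itgam had 6 CpG, Itgax 5, S100a8 4, Mrc1 and Chil3 3 each, S100a9 2 and Marco 0. All 7 were below the median of 7 CpG over 32851 such windows, of which 31.4% held 3 or fewer. No peak of any library overlapped any of these 7 windows. Over all windows the share with a peak was 5.32%, 5.20% and 3.04% in transgenic and 2.26%, 5.43% and 0.788% in wild-type lists, and 92.1% had none in any list, so an absence at 7 windows is what most windows showed. Windows that did carry a peak were richer in CpG, with a median of 9 to 14 by library against 7 in windows without one. The letters GAGGAA, a core of the purine-rich sites that PU.1 (the product of Spi1) and related factors can bind, were searched on both strands, where a match can share an outer base with a CpG. They were present in 4 of the 7 windows, those of Itgam, Mrc1, S100a8 and Marco, and in 28.3% of all windows.

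Spi1 encodes PU.1, the transcription factor that directs myeloid differentiation. Its span on chromosome 2 (91082374 to 91115759) with the flanks was covered by peaks over 5.41%, 1.75% and 1.46% in transgenic 1, 2 and 3 and over 1.16%, 2.86% and 0.588% in wild type 1, 2 and 3. The groups overlapped, since wild type 2 lay above transgenic 2 and 3. The difference of group means was 1.34 percentage points (exact permutation p = 0.5, two-sided, n = 3 against 3, where the smallest possible p is 0.10), and ran from 0.07 points without transgenic 1 to 2.05 without transgenic 3. The region shared by all 6 libraries lay outside the gene at chr2:91118909-91119649, 3150 bp past the higher-coordinate end and inside the neighbouring gene Mybpc3, which encodes a cardiac myosin-binding protein. Its scores were 484, 390.0 and 124 in transgenic and 100.2, 365 and 79.1 in wild-type lists. Within the Spi1 span itself the peaks were scattered: 5 regions were found, of which 4 occurred in a single library, and the other, chr2:91099260-91099680, had a peak in transgenic 1 and 2 only (scores 108 and 94.4). One of the 5, in transgenic 1 alone, reached the higher-coordinate end of the gene.

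Csf1r encodes the receptor for colony-stimulating factor 1, on which macrophages depend for survival. It had the most regions of any member, 9, and none was found in all 6 libraries. The window on chromosome 18 (gene span 61105572 to 61131139) was covered over 4.76%, 4.11% and 1.14% in the transgenic libraries and 2.36%, 5.64% and 0.45% in the wild-type libraries. Wild type 2 was the highest and wild type 3 the lowest, so that the transgenic values lay inside the wild-type range (difference 0.52 points, exact permutation p = 0.9, n = 3 each, and from -0.66 points without wild type 3 to 1.93 without wild type 2). Scores stayed low, with 145 as the highest in any library. The region seen most often, in the 3 transgenic lists and wild type 2, was chr18:61132095-61132730, 956 bp past the higher-coordinate end and inside the next gene, Hmgxb3. Near the other end, transgenic 1 and wild type 2 had a peak at chr18:61104113-61104624, 948 bp outside the gene. Inside the gene, chr18:61111870-61112295 had peaks in transgenic 1, transgenic 2 and wild type 3.

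**Figure D1:**
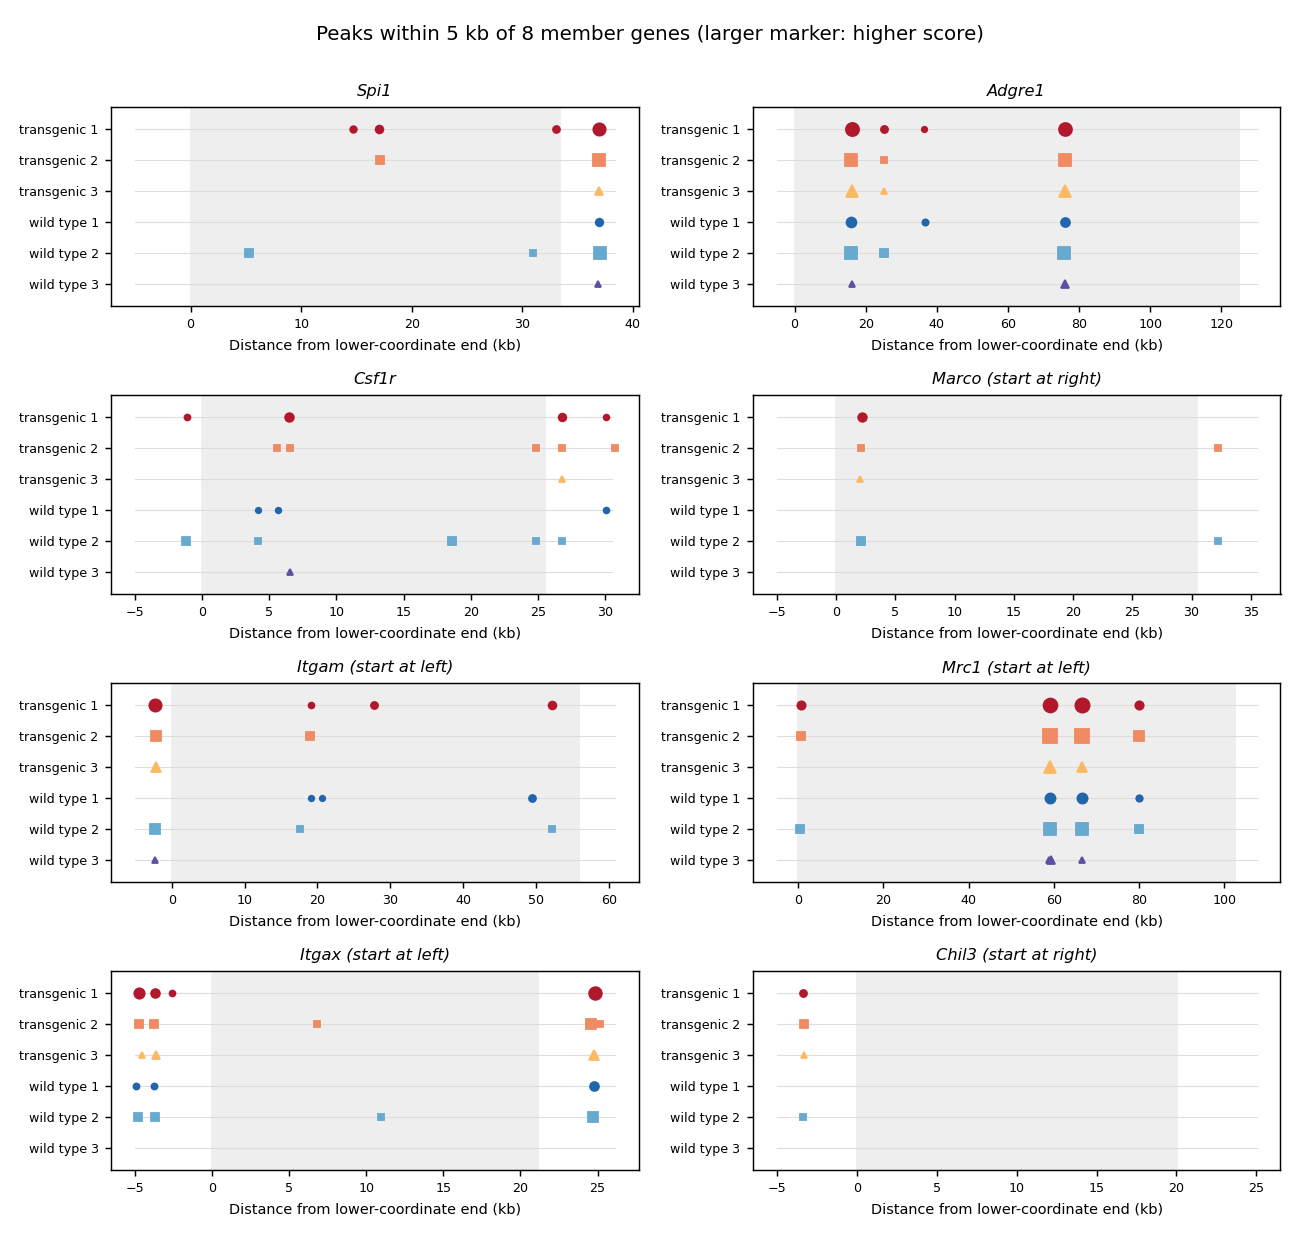
Positions of peaks in the windows of 8 member genes, 1 row per library, in kb from the gene's lower-coordinate end. Grey marks the gene span, the rows run 5 kb beyond it, and larger markers have higher peak scores. The markers stand in columns at the 5 regions found in all 6 libraries, in Adgre1, Mrc1 and just beyond Spi1, and are scattered in Csf1r and in the bodies of Itgam and Spi1.

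The integrin genes Itgam and Itgax lie side by side on chromosome 7 and encode the alpha chains CD11b, of neutrophils, monocytes and most macrophages, and CD11c, of dendritic cells and alveolar macrophages. Itgax was the most covered member. Its window (gene span 128129526 to 128150657, plus strand) was covered over 9.01%, 8.76% and 4.31% in transgenic 1, 2 and 3 and over 6.42%, 8.58% and 0% in wild type 1, 2 and 3. The absence of any peak in wild type 3 set the mean difference of 2.36 points (exact permutation p = 0.5, n = 3 each), which was -0.14 without that library and 4.15 without wild type 2. Almost all of this coverage lay outside the gene. Upstream of the start were chr7:128124344-128125150 and chr7:128125382-128126119, at 4400 to 5206 bp and 3431 to 4168 bp before it, and past the end was chr7:128153599-128154958, 2942 bp beyond the gene and over the pseudogene Gm17831. Each of these 3 regions had a peak in all libraries but wild type 3. At the last of them the scores were 541, 286 and 308 in transgenic 1, 2 and 3 and 157 and 267 in wild type 1 and 2. Each transgenic score was thus above those of wild type 1 and 2, but scores are not scaled between libraries. The share of regions in the series with such an order of scores is not given here. Ranks within the lists overlapped: these peaks lay above 93.3%, 88.2% and 94.9% of the transgenic and 90.9% and 88.7% of the wild-type lists. In the body of Itgax there were 2 regions, each in a single library.

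Itgam (128062640 to 128118491, plus strand) was covered over 2.48%, 1.06% and 0.82% of its window in the transgenic and 1.27%, 1.56% and 0.28% in the wild-type libraries, so that wild type 1 and 2 lay above transgenic 2 and 3 (difference 0.42 points, exact permutation p = 0.6, n = 3 each). The difference changed sign without transgenic 1, to -0.097, and was 0.735 without transgenic 3. Its most frequent region lay 1930 to 2506 bp before the start, at chr7:128060134-128060710, and had a peak in all libraries but wild type 1. Scores there were 475, 193 and 205 in transgenic and 309 and 72.9 in wild type 2 and 3. When each list was cut to its 30637 top-scoring peaks, Itgam became the 1 member whose covered share was higher in every transgenic than in every wild-type library, against 4.67% of all protein-coding genes under that setting. The body of Itgam had 6 regions, of which 4 were in a single library, and chr7:128081468-128081895, with peaks in transgenic 1, transgenic 2 and wild type 1, was the most frequent.

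Adgre1 encodes an adhesion G-protein-coupled receptor long used to mark mouse macrophages. Its span of 124949 bp on chromosome 17 (57358581 to 57483529) was the longest of the members, and all its peaks lay in the body, with none at either end or in the flanks. The window was covered over 1.76%, 1.30% and 1.13% in the transgenic and 1.16%, 1.34% and 0.35% in the wild-type libraries. Wild type 3 was the lowest, and wild type 1 and 2 both lay above transgenic 3 (difference 0.45 points, exact permutation p = 0.5, n = 3 each, and 0.147 points without wild type 3). Of its 4 regions 2 were found in all 6 libraries. At chr17:57374198-57374984 the scores were 632, 480.3 and 362 in transgenic and 217, 495 and 62.4 in wild-type lists. At chr17:57434133-57434989 they were 595, 378 and 319 against 160.4, 593 and 119.9. The second of these ranked above 91.0% or more of the peaks in every list, while the first did so in 5 lists and ranked above only 31.4% of the peaks of wild type 3.

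**Figure D2:**
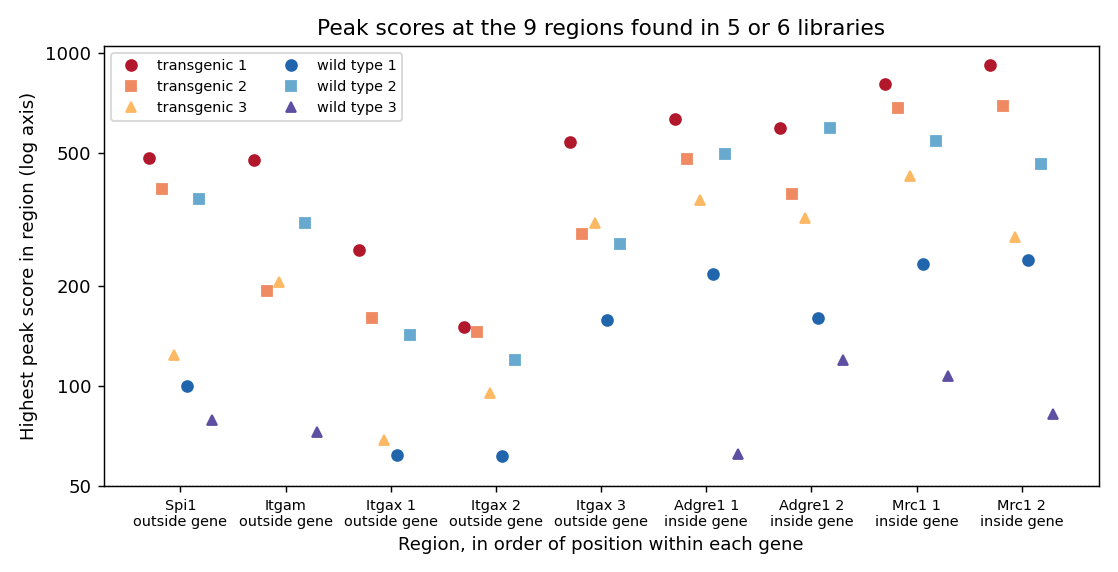
Highest peak score (log axis, lowest possible score 50) in each library at the 9 regions with a peak in 5 or 6 libraries, ordered by gene and position. Transgenic 1 is the highest at each of the 9 regions and wild type 3, where it has a peak, the lowest. Wild type 2 lies above transgenic 3 at all of them but the last Itgax region.

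Marco and Mrc1 encode scavenger receptors, Marco a class A receptor of alveolar macrophages for particles and bacteria, and Mrc1 the mannose receptor CD206. Mrc1 (chromosome 2, 14229414 to 14332023, plus strand) held the highest-scoring member peak in the 3 transgenic lists and wild type 1, while in wild type 2 and 3 that peak lay in Adgre1. Its window was covered over 2.60%, 2.33% and 1.47% in the transgenic and 1.95%, 2.24% and 0.73% in the wild-type libraries (difference 0.49 points, exact permutation p = 0.5, n = 3 each, and from 0.034 points without wild type 3 to 0.821 without transgenic 3). Transgenic 1 was highest and wild type 3 lowest, and wild type 1 and 2 both lay above transgenic 3. Deep in the gene, 58480 to 59645 bp after the start, chr2:14287894-14289059 scored 805, 685 and 427 in transgenic and 233, 543 and 107 in wild-type lists. The region chr2:14295612-14296548, 66198 to 67134 bp after the start, scored 916, 694 and 280.1 against 238, 464 and 82.6. Both were found in all 6 libraries. The first ranked above 86.1% to 98.5% of its list's peaks, and the second above 93.5% to 98.2% in 5 lists and above 67.4% in wild type 3. Another body region, chr2:14309068-14309758, had peaks in 4 libraries.

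Of the 7 members with a resolved start site, Mrc1 had the peak closest to it. The region chr2:14229774-14230285 lay 360 to 871 bp after the start, downstream of the sequence printed above, and had a peak in transgenic 1 (score 129), transgenic 2 (93.8) and wild type 2 (94.3). These are the 3 longest lists. In the other 3 libraries the nearest peak to the start was 10096 bp or more away.

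Marco (chromosome 1, 120474538 to 120505024, minus strand) was covered over 1.03%, 1.63% and 1.10% in the transgenic and 0%, 1.66% and 0% in the wild-type libraries (difference 0.70 points, exact permutation p = 0.4, n = 3 each, from 0.42 points without wild type 1 or 3 to 1.25 without wild type 2). The wild-type libraries stood at both extremes, and wild type 2 was the highest of all 6. The region near its end, chr1:120476373-120476911, had peaks in the 3 transgenic lists (scores 142, 63.2 and 74.2) and in wild type 2 (87.7). Before the start, at 1567 to 1904 bp, chr1:120506591-120506928 had a peak in transgenic 2 and wild type 2.

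S100a8 and S100a9 encode the paired calcium-binding proteins of calprotectin, among the most abundant cytosolic proteins of neutrophils. They lie close together on chromosome 3 (90669071 to 90670034 and 90692630 to 90695721), and neither had a peak within 5000 bp in any library. They are also the shortest members, and of the 3475 protein-coding genes with a window no longer than that of S100a9 (13092 bp), 53.9% had no peak in any list, against 19.2% of all protein-coding genes. The nearest region, chr3:90684515-90685236, lay between the genes, 7394 bp from S100a9 and 14481 bp from S100a8, outside any annotated gene. It was found in all 6 libraries, with scores of 407, 179.8 and 161 in the transgenic and 65.5, 239 and 61.9 in wild-type lists, which overlapped between groups.

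Chil3 encodes Ym1, a chitinase-like protein secreted by alternatively activated macrophages. It had a single region, past its end at chr3:106143904-106144578, 2976 bp outside the gene (chromosome 3, 106147554 to 106167564, minus strand). Its window was covered over 1.95%, 1.99% and 0.76% in the transgenic and 0%, 1.24% and 0% in the wild-type libraries, so wild type 2 lay above transgenic 3 (difference 1.15 points, exact permutation p = 0.2, n = 3 each). Scores were 84.0, 126 and 51.9 in transgenic and 73.4 in wild type 2.

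**Figure D3:**
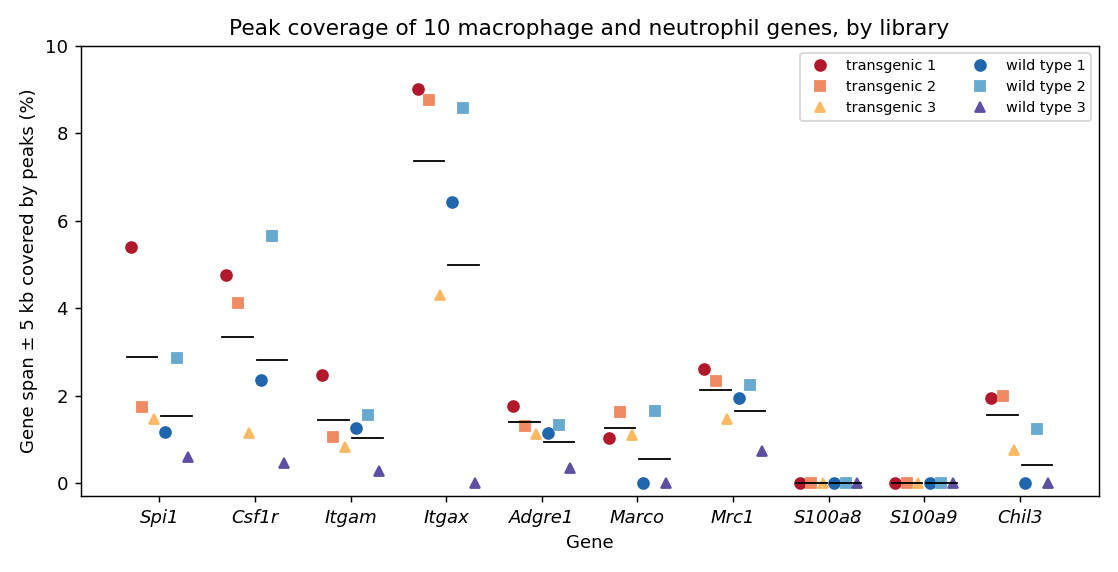
Share of each gene's span plus 5 kb on either side that was covered by peaks (linear axis, %), with 1 point per library and a bar at each group mean. Itgax reached 9.01% and S100a8 and S100a9 stayed at 0, and in none of the 10 genes do the 3 transgenic points all lie above or all below the 3 wild-type points.

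By position, 24 of the 39 regions (61.5%) lay in a body, 10 (25.6%) in a flank 1000 to 5000 bp outside the gene and 5 (12.8%) within 1000 bp of an end. These zones made up 77.0%, 15.4% and 7.52% of the windows' length. The body held 4 of the 5 regions found in all 6 libraries, and no region at an end was found in all. Of the 39 regions 12.8% were shared by all 6 libraries and 33.3% were found in 1 library only, against 10.9% and 28.4% of the 165995 merged regions of the series. In transgenic 1, 3 members had a peak within 1000 bp of a gene end (Csf1r, Mrc1 and Spi1). In transgenic 2 and in wild type 2 there were 2 (Csf1r and Mrc1 in both), and in the other 3 libraries none. Over all protein-coding genes the share with such a peak was 27.5%, 26.7% and 17.8% in the transgenic and 13.2%, 26.2% and 5.56% in the wild-type libraries. The counts overlapped between the groups, whose means differed by 1 member (exact permutation p = 0.7, n = 3 each). The libraries with such a peak in a member were those with the longest lists. The difference was 0 with 30637 top-scoring peaks from each list and 2.67 with an end window of 2000 bp (exact permutation p = 0.2).

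Counts over the 10 genes overlapped between the groups. Members with a peak numbered 8, 8 and 8 in the transgenic and 6, 8 and 5 in the wild-type libraries (8 ± 0 and 6.33 ± 1.53, SD, n = 3; exact permutation p = 0.4). The share of all protein-coding genes with a peak was 74.8%, 75.2% and 66.2% in transgenic and 60.0%, 74.4% and 37.1% in wild-type libraries, and was likewise lowest in wild type 1 and 3. The members' difference of 1.67 was 0 with 30637 top-scoring peaks from each list. Peaks covered 2.86%, 2.18% and 1.31% of the summed member windows in the transgenic and 1.53%, 2.38% and 0.37% in the wild-type libraries (2.11 ± 0.78% and 1.43 ± 1.01%, SD, n = 3; exact permutation p = 0.5). The difference of 0.69 points became 0.16 without wild type 3, 0.32 without transgenic 1, 1.09 without transgenic 3 and 1.16 without wild type 2, and was 0.29 with 30637 top-scoring peaks from each list. Not overlapping between groups in the higher direction were 0 of 10 members against 5.44% of protein-coding genes, and in the lower direction 0 of 10 against 0.0137%. Over the 17687 protein-coding genes with any coverage, the smallest exact permutation p after Benjamini-Hochberg adjustment was 0.649, so no gene could pass at 0.05 in this design.

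Set against the length of each list, the members' share ran the other way. Their windows held 21.6, 20.6 and 16.5 of every 100000 peaks in transgenic 1, 2 and 3 and 26.6, 22.5 and 26.1 in wild type 1, 2 and 3, so each wild-type value was above each transgenic value (19.6 ± 2.73 and 25.1 ± 2.25, SD, n = 3; exact permutation p = 0.1, the smallest this design allows). These shares rest on 26, 24, 13, 16, 25 and 8 peaks. Their 95% exact binomial intervals, which cover counting error only, all overlap, from 8.77 to 28.2 in transgenic 3 and from 15.2 to 43.2 in wild type 1. The highest shares belonged to the shortest lists, wild type 1 and 3, and the lowest to transgenic 3, whose list was of middle length. With 30637 top-scoring peaks from each list the order of the means turned, to a transgenic mean 1.09 higher (exact permutation p = 1). With a score of at least the pooled median of 96.3 the difference, transgenic minus wild type, was -8.51 (exact permutation p = 0.4). The part of list length in the difference in share was not tested further. In the same way, member coverage divided by that of all protein-coding windows was 0.935, 0.857 and 0.830 in the transgenic and 1.33, 0.918 and 1.33 in the wild-type libraries (exact permutation p = 0.2). The difference of -0.32 was -0.015 with equal numbers of peaks and -0.57 with a score of at least the pooled median.

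**Figure D4:**
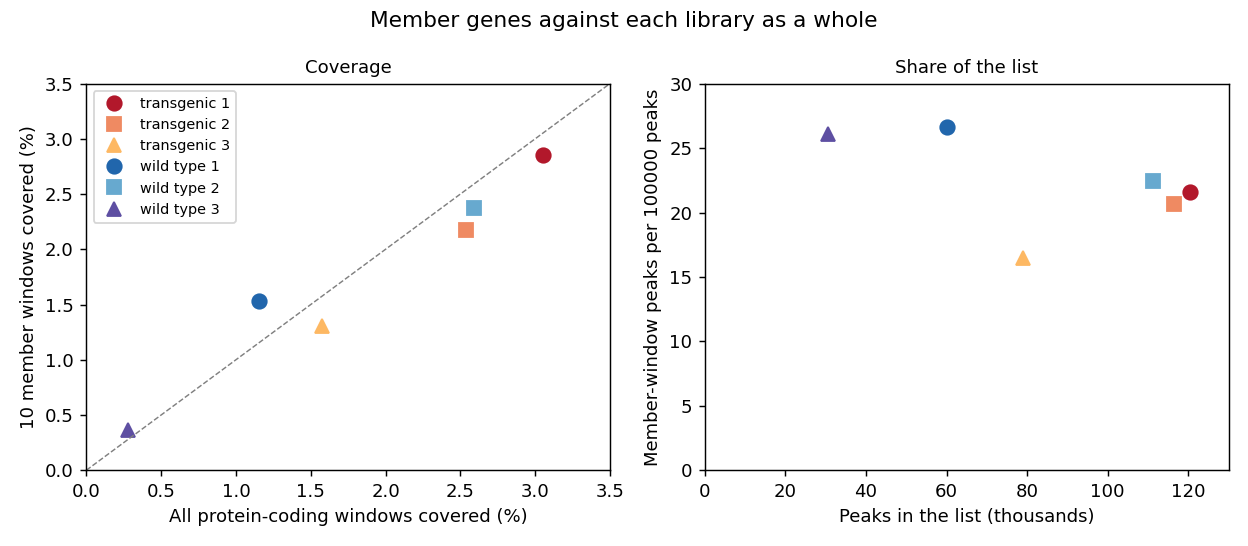
Left, percent of the 10 member windows covered by peaks against the percent of all protein-coding windows covered, with a dashed line of equality. Right, member-window peaks per 100000 peaks of the list against list length in units of 1000 peaks. Wild type 1 and 3, with the shortest lists, lie above the line of equality and have the highest shares, and the other 4 libraries lie below the line.

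In the read-level comparison the members were also without a call. The authors' deposited table lists 407 differential regions at an FDR of up to 0.0996, which its p-values and FDR imply were drawn from 92205 tested regions (0.441% called, 0.33% higher and 0.112% lower in transgenic mice). Just as many regions of the 165995 merged here had peaks from at least 3 lists. Of the 39 member regions 17 met that condition, and none was in the authors' deposited table. A region of the authors' deposited table fell in the window of 0.854% of protein-coding genes and in 0 of 10 member windows. At that background a count of 0 is no result about the members. With flanks of 50000 bp the members' count was still 0. The share of all protein-coding genes at that width is not given here, so that count is not read further.

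Other genes of the myeloid lineage, from 8 lists by role with 76 genes in all, were measured in the same way. None of the 76 could pass the adjusted test in either direction, none was lower without overlap, and 4 (5.26%, against the 5.44% of all protein-coding genes) were higher in every transgenic library. These were Csf3, which encodes the growth factor of neutrophils, the pattern-recognition receptor gene Tlr2, the microglial and macrophage receptor gene Trem2 and the scavenger receptor gene Msr1. Csf3 was covered over 15.9%, 4.63% and 2.71% of its window in the transgenic and 1.64%, 2.52% and 0% in the wild-type libraries. Tlr2 was covered over 7.10%, 7.91% and 7.75% against 6.44%, 7.09% and 1.88%, so transgenic 1 and wild type 2 all but met. No member, 5 of the 76 genes (6.58%) and 3.54% of all protein-coding genes had end peaks in every library. Those 5 were the neutrophil elastase gene Elane, Tlr2, the chemokine receptor gene Cxcr1, the GM-CSF receptor gene Csf2ra and Itgad, the next integrin gene after Itgax. Closest to Itgax in covered share over the 6 libraries were the Fc receptor gamma-chain gene Fcer1g and the complement genes C1qc and C1qb, with summed absolute differences from 2.66 to 7.12 percentage points.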

How the data were processed

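MBD-seq libraries from 3 transgenic and 3 wild-type mouse lungs were grouped and numbered by sample title. Per the submitters' processing notes, the tools were Bowtie, DiffBind and edgeR, without versions, and the build mm10. The deposited peak lists, 1 per library, carry MACS-style names and the caller's score, with settings not given in the sources used. In the authors' deposited table, concentrations and folds are on a log2 scale and p-value and FDR columns were deposited too, per the file headers. Peaks were assigned to gene spans of RefSeq (GRCm38.p6) with Python 3.11.15 and numpy 2.4.6. Strand came from RefSeq promoter sequences, which matched 7 of the 10 genes, so Spi1, Csf1r and Adgre1 are described by coordinate only, and exons and introns were not resolved. A peak was placed at an end within 1000 bp of either end, otherwise in the body or flank. Peaks on unplaced sequences were left out. Regions are peaks of the 6 lists merged where they overlap or touch, printed 1-based. Group means of library values were compared with exact permutation tests, two-sided.

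All members were named, with their most frequent region. From other lists, genes without overlap between groups, genes with an end peak in all 6 libraries and the 3 myeloid genes nearest to the most covered member were named. Further regions of members and the region between S100a8 and S100a9 were chosen after their values were seen. Members and lists were chosen with earlier results of these data known. In a check of the code on shuffled data with 21887 genes, the calls recovered 200 of 200 planted ones. Each planted gene was set higher in every transgenic library, so this recovery was fixed in advance and gives no error rate. The labels give replicates as biological. Alternatives were 30637 top-scoring peaks from each list, a score of at least 96.3 (the pooled median), other windows, overlap of at least 50% of the peak, a replicate block and leaving out each library. Those for coverage relative to all genes were chosen after seeing the data.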

Additional observations from a re-analysis of the deposited data

How the results depend on the processing

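Across the alternatives tried, no test of the members passed at 0.05, and with 3 animals a group none could. The higher mean share of member peaks in the wild-type lists reversed to 1.09 more per 100000 in transgenic with equal numbers of top-scoring peaks. With a score of at least the pooled median the difference instead grew from -5.50 to -8.51 (exact permutation p = 0.4). With flanks of 2000 bp, of 10000 bp and without flanks it was -5.09, -3.85 and -6.45 (exact permutation p = 0.1 each). With equal numbers of top-scoring peaks the differences in members with a peak and in members with an end peak were 0 and that in coverage 0.29 points. With a score of at least the pooled median these 3 differences were 2, 0.67 and 0.66 points. The difference in members with an end peak was 0.67 with an end window of 500 bp (exact permutation p = 0.7). It was 2.67 with an end window of 2000 bp (exact permutation p = 0.2). The count of members higher in every transgenic library, 0 as reported, was 1 (Itgam) with equal numbers of top-scoring peaks and 1 (Itgam) with a score of at least the pooled median, where 4.67% and 4.3% of all protein-coding genes were called. Without one library it ranged from 0 to 3: 3 without transgenic 3 (Mrc1, Chil3, Itgax; 28.4% of all genes) and 3 without wild type 2 (Marco, Spi1, Chil3; 47% of all genes). Over the single libraries left out, the difference in members with a peak ran from 1 to 2.5, in coverage from 0.16 to 1.16 points, in share of peaks from -6.79 to -3.95, in members with an end peak from 0.33 to 1.83 and in relative coverage from -0.45 to -0.25.

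The replicate numbers do not pair the animals by label, and deviations from group means over genes correlated at -0.34, 0.11 and 0.67 within numbers 1, 2 and 3. Between unlike numbers these correlations ran from -0.69 to 0.61. With the number as a replicate block, 3 members (Mrc1, Chil3, Itgax) were higher in every pair, against 28.8% of all genes, and the smallest sign-flip p was 0.25. Depth is unknown, so a missing peak in the short lists does not show absent methylation.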

Other observations

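Itgb2 encodes the beta chain CD18 that pairs with the products of Itgam and Itgax. It was the 1 gene of the 8 other myeloid lists and the lymphocyte and alveolar type 2 lists with a region of the authors' deposited table within 50 kb of its span. That region lay 29024 bp away at positions 77500682 (0-based start) to 77501305 of chromosome 10. In the authors' deposited table its fold, read as log2, was 1.16 (transgenic 4.07, wild type 2.91). Its FDR of 0.0953 was close to the largest FDR listed. The share of all protein-coding genes with a region within 50 kb is not given here, so the count of 1 is no result about these lists.

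Among genes of other cell types of lung, 0 of 15 lymphocyte genes and 2 of 11 alveolar type 2 genes (18.2%) were higher in every transgenic library, against 5.44% of all protein-coding genes. The 18.2% rests on 2 genes, both at an adjusted exact permutation p of 0.649, and its difference from the share of all genes was not tested. In the first list Cd8a, the T-cell coreceptor gene, had an end peak in each of the 6 libraries. The 2 alveolar type 2 genes were Lamp3 and the surfactant gene Sftpc, which was covered over 7.49%, 6.13% and 4.53% in the transgenic and 3.25%, 3.68% and 1.27% in the wild-type libraries. Sftpc encodes surfactant protein C, whose promoter drives the transgene. Whether transgene sequence added to the Sftpc peaks was not tested.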
